A study of Homo sapiens with 3 samples.

Results

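The translation initiation factor genes are the 55 genes of the deposited count table whose symbols begin with EIF1 to EIF6, after antisense RNAs and pseudogenes were left out, among 51136 genes in all. EIF4EBP1, EIF4EBP2 and EIF4EBP3 were kept although their symbols end like those of pseudogenes, because they encode the 4E-binding proteins. The genes were measured by RNA-seq in 3 libraries of 1 sample each from PANC-1, a line grown from a human pancreatic carcinoma. The control library came from cells that received no agent, and no vehicle is named for it. The Rg3 library came from cells given Ginsenoside Rg3, an active ingredient of ginseng, at 200 μM for 24 h, and the TAM library from cells given tamoxifen, a modulator of the estrogen receptor, at 50 μM for 24 h. The medium of all 3 held fetal serum and antibiotics. The count totals of the libraries were 11300766 (control), 12861693 (Rg3) and 11321442 (TAM). Of the 55 members, 53 had at least 10 counts in a library and were compared, while EIF1AY and EIF4E1B were under that limit in every library. Since a condition is 1 library, the differences lack any replicate check and no test between conditions was made. The 95% intervals below are exact binomial ones (Clopper-Pearson) on the reads of 2 libraries and cover counting error only. In bulk RNA a share of a library cannot tell less of a transcript per cell from fewer cells that hold it.

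Initiation begins when eIF2 brings the initiator methionyl-tRNA to the small ribosomal subunit, which eIF1, eIF1A, eIF3 and eIF5 prepare for scanning. The mRNA is brought in by eIF4F, made of the cap-binding protein eIF4E, the scaffold eIF4G and the helicase eIF4A. The 4E-binding proteins hold eIF4E back when mTOR is inactive, and the kinases EIF2AK1 to EIF2AK4 phosphorylate eIF2 under stress, which blocks its recycling by eIF2B. Both controls act on proteins, whereas the measurements here are of mRNA.

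Epithelial keratin genes were read in each library, with 15329 counts of KRT8 in control cells, 7817 with Rg3 and 14411 with TAM. KRT18 had 11216, 7406 and 13162 counts, KRT19 had 665, 290 and 181, and KRT7 had 248, 93 and 345. EPCAM had 26, 26 and 8 counts and CDH1 had 76, 39 and 5, so that these 2 epithelial markers were low throughout. The acinar, islet and hepatocyte markers (PRSS1, CPA1, AMY2A, INS, GCG and ALB) had 0 counts in each library. PTPRC, CD3E, PECAM1, CDH5, DCN and LUM had at most 2 counts in any library. CD68, listed as a leukocyte marker, had 615, 426 and 1100 counts. COL1A1, listed as a fibroblast marker, had 1853, 1005 and 734.

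Several initiation factor genes have near-identical copies elsewhere in the genome, and the counting of reads that match both is not given in the sources used here. The open reading frames of EIF5A, the factor that carries the modified amino acid hypusine, and of EIF5AL1, a copy on chromosome 10, are each 465 bases long and differ at 5 bases (98.9% identity). The 90 coding bases from 46 to 135, counted from the start codon in the GENCODE 29 transcripts, show the 3 differences they hold in capitals and are printed because the counts of both genes depend on such stretches.
EIF5A: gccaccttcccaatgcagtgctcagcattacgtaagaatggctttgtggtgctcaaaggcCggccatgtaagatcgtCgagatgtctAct
EIF5AL1: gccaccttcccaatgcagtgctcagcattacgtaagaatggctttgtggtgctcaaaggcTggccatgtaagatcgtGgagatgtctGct
No base differs before the first capital, so that a read within that stretch fits both copies. EIF5AL1 had 5226, 4093 and 7267 counts in the control, Rg3 and TAM libraries, beside 8809, 8352 and 10923 on EIF5A. The values of the pair are therefore given as uncertain below, and so are those of EIF3C and EIF3CL, since 98.7% of the 50-base stretches of EIF3CL recur in EIF3C. Of 77 EIF pseudogenes in the table, 58 had reads in at least 1 library. They took 8.36% of all reads on EIF genes and pseudogenes in control cells, 8.85% with Rg3 and 7.48% with TAM. EIF4E was the extreme case, with 99, 261 and 67 counts on the gene and 146, 375 and 127 on its pseudogenes.

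Promoter sequence was available for 46 of the 55 genes (RefSeq, GRCh38.p14), from 250 bases before to 50 bases after the gene's start. The E-box CACGTG, which reads the same on both strands and is the motif bound by MYC among other factors, was in 12 of the 46 (26.1%) and in 7.43% of 27305 promoters. The motif TGATGNAA, a form of the element bound by ATF4, was in 0 of the 46 and in 3.67% of all promoters on either strand. CCAAT was in 18 of the 46 (39.1%) and in 35.7% of all. The E-boxes of 4 genes of the eIF4 group are shown, because these genes share the motif and their values with Rg3 differed in sign. EIF4A3, of the same group, also holds the motif and is not shown.
EIF4E, chr4:98929336-98929375, minus strand: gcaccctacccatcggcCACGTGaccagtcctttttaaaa
EIF4E, chr4:98929183-98929222, minus strand: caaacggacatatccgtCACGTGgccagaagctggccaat
EIF4G1, chr3:184314445-184314484, plus strand: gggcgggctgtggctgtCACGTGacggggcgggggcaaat
EIF4G1, chr3:184314522-184314561, plus strand: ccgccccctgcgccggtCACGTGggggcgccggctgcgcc
EIF4B, chr12:53006416-53006455, plus strand: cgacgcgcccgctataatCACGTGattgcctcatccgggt
EIF4H, chr7:74174140-74174179, plus strand: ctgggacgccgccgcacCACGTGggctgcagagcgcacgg
Capitals mark the E-box. With Rg3 the log2 fold change was 1.06 for EIF4E, -0.44 for EIF4G1, 0.11 for EIF4B and -0.28 for EIF4H. The 12 genes with the motif had a median log2 fold change of 0.03 with Rg3 and 0.16 with TAM, and the genes without it had 0.28 and 0.10. A match is a description of these letters and not a binding site.

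Per length, initiation factor genes spanned more than 3 orders of magnitude in control cells. Levels are CPM (TMM-scaled) per kilobase of the longest GENCODE 29 transcript, so that genes whose longest transcript is seldom made are understated. In the control library the level was 924 for EIF3K, 509 for EIF5A, 333 for EIF4A1, 326 for EIF3I and 280 for EIF6. The same 5 genes were the highest with TAM, at 1018, 729, 400, 497 and 525. With Rg3, EIF3K (650), EIF5A (383), EIF4A1 (286) and EIF3I (237) were again the highest, but EIF4G2 (199) came next, above EIF6 (153). At the lower end were EIF4E3, a divergent cap-binding protein, with 0.316, 0.432 and 0.416, and EIF4E with 0.750, 1.57 and 0.586 over a longest transcript of 11523 bases.

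**Figure D1:**
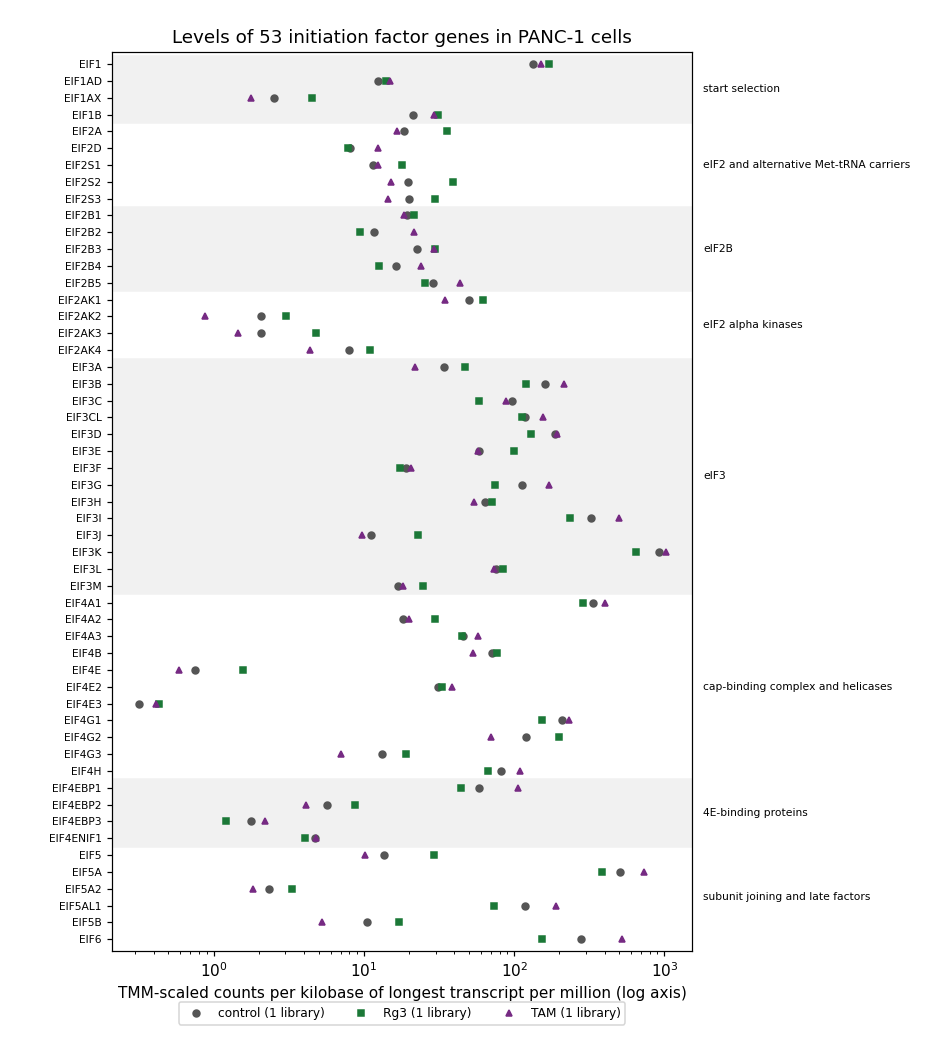
Levels of the 53 compared genes by functional group, in TMM-scaled CPM per kilobase of longest transcript on a log axis, with 1 point per library. EIF3K is highest in each library, from 650 to 1018, and EIF4E3 lowest, from 0.316 to 0.432.

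A gene was called higher or lower when its TMM-scaled counts differed by a fold over 1.5 or under 0.67 and the counting interval was clear of no change. In the Rg3 library 13 of the 53 genes were called higher than in the control library (24.5%, where 20.4% of all 16487 genes compared were) and 4 lower (7.55%, where 16.3% of all genes were). In the TAM library 8 were called higher (15.1%, against 14.4% of 16079 genes) and 6 lower (11.3%, against 18.5%). The shares called higher were near the background for both agents. Among genes with 50 counts or more in a library the background was 24.4% called higher and 17% called lower for Rg3, against 16.2% and 20.8% for TAM. The median log2 fold change of the 53 genes was 0.17 with Rg3, from -0.87 for EIF6 to 1.21 for EIF2AK3, and 0.04 over all genes. With TAM it was 0.11, from -1.25 for EIF2AK2 to 0.91 for EIF6, and -0.02 over all genes. Division by library totals shifted every log2 fold change by 0.15 with Rg3 and by -0.21 with TAM, which gave 21 higher and 1 lower for Rg3, and for TAM 3 higher and 14 lower. Of the calls that this shift could end, 3 of the 4 lower with Rg3 were lost (EIF3C, EIF3G and EIF5AL1). Of the 8 higher with TAM, 5 were lost (EIF2B5, EIF2D, EIF3G, EIF3I and EIF5AL1). Newly called higher with Rg3 were EIF1B, EIF2AK2, EIF2AK4, EIF2S3, EIF3A, EIF3M, EIF4G3 and EIF5A2. Newly called lower with TAM were EIF1AX, EIF2AK1, EIF2AK3, EIF2S2, EIF2S3, EIF4B, EIF4EBP2 and EIF5.

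**Figure D2:**
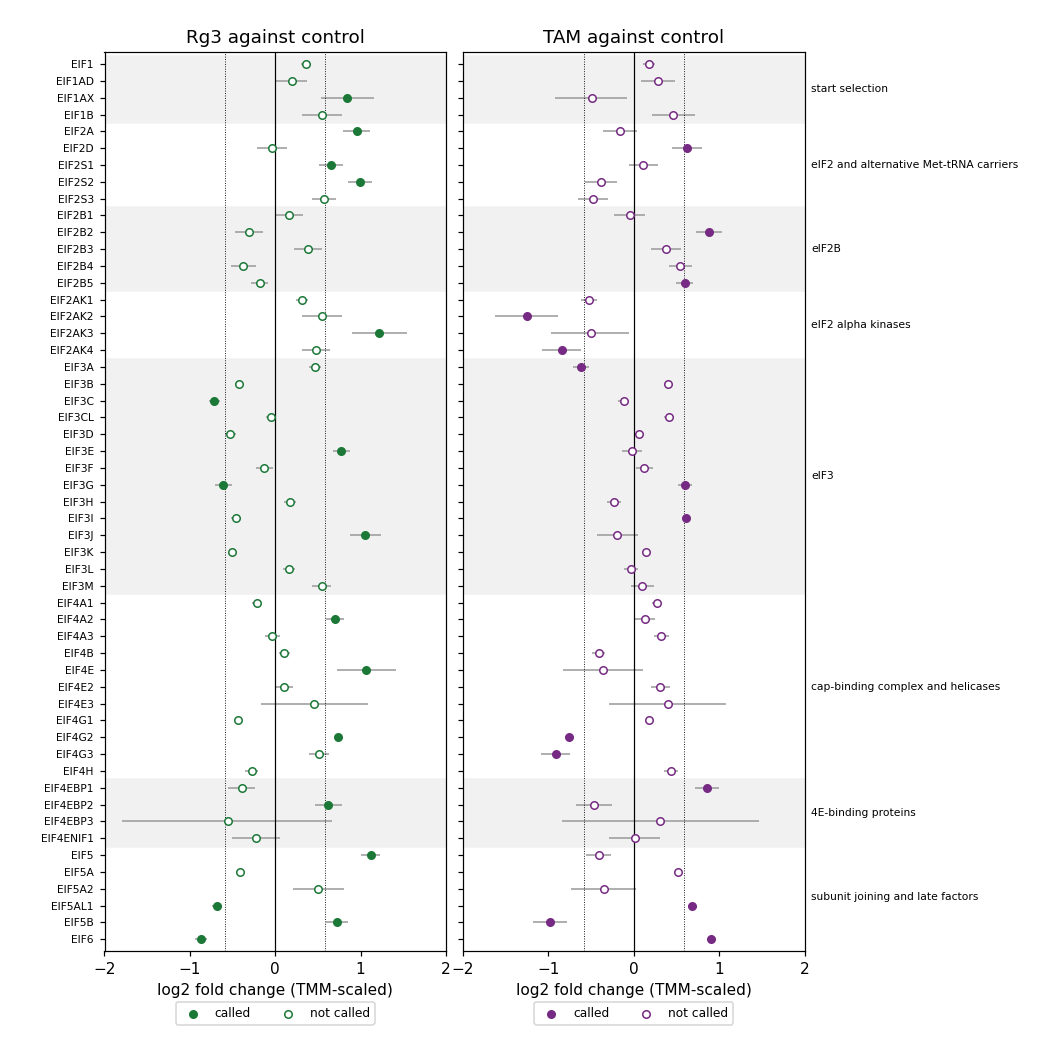
Log2 fold change of the 53 compared genes against the control library, after TMM scaling, with 95% counting intervals as bars. Filled points passed the fold limit (dotted lines) and the interval (13 higher and 4 lower for Rg3, and for TAM 8 higher and 6 lower).

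Which members were higher and which lower went with the base composition of their transcripts, and also with their length. The members' longest transcripts ranged from 34.3% GC (EIF5A2) to 65.5% GC (EIF4EBP1). Of the 16 genes under 42% GC, 10 were called higher with Rg3 and 0 lower. Among all genes of that range with at least 50 counts, 68.2% were called higher. Of the 14 genes with 50% GC or more, 0 were called higher and 2 lower, where 1.84% and 35.5% of all such genes were. With TAM the order was the other way, with 0 of the 16 called higher and 3 lower (where 44.2% of all such genes were lower). Of the 14, 4 were called higher and 0 lower with TAM, where 27.3% and 8.69% of all such genes were. Across the 53 genes, Spearman's rho between log2 fold change and GC content was -0.79 with Rg3 and 0.54 with TAM. The same held in the whole table, where rho was -0.81 across 11583 genes with Rg3 and 0.51 across 11022 genes with TAM among genes with at least 50 counts. Between log2 fold change and the length of the longest transcript, rho across the 53 genes was 0.43 with Rg3 and -0.52 with TAM. Across the genes of the whole table with at least 50 counts it was 0.20 and -0.45. Genes of 1 library are not independent replicates, and these correlations describe the libraries. Among genes with at least 50 counts, the median of all genes under 42% GC was 0.75 with Rg3 and -0.50 with TAM, and the median of the 16 members in that range was 0.71 and -0.21. With 1 library per condition, a GC or length trend of a library and the agent given to its cells cannot be told apart.

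**Figure D3:**
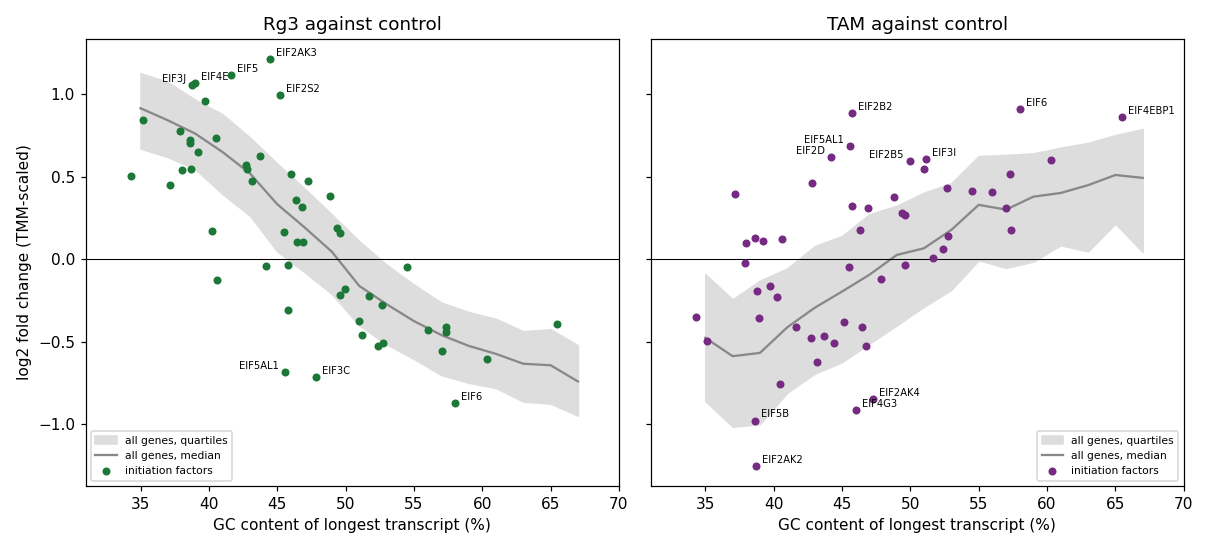
Log2 fold change against the control library (y axis) by GC content of the longest transcript (x axis, percent). Points are the 53 genes, the grey line and band are the median and quartiles of all genes with at least 50 counts in bins of 2 percentage points, and names mark called genes that were still at least 0.3 from 0 once the trend on GC content and length was taken out. The Rg3 points lie along a band that falls with GC content, while the TAM band rises and the members under 42% GC (median -0.21) lie mostly above its line (all genes -0.50).

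When a smooth trend on GC content and length was taken out of all genes, 2 members were called higher with Rg3 (3.77%, where 5.36% of all genes were) and 3 lower (5.66%, where 7.63% were). With TAM 10 were called higher (18.9%, where 11.5% were) and 0 lower (where 11.3% were). The trend-adjusted values given for single genes below are these. Of the 13 genes called higher with Rg3, EIF2AK3 and EIF2S2 were still called. Of the 8 called higher with TAM, EIF2B2, EIF2B5, EIF2D and EIF5AL1 were, and of the 6 called lower 0 were. The adjustment depends on which transcript is taken as the source of the reads. With the longest protein-coding transcript in place of the longest one, EIF2AK3 and EIF2S2 were again called with Rg3, and only EIF2B2 and EIF5AL1 of the 4 with TAM. The adjustment also added 6 genes to those higher with TAM (EIF2S1, EIF3F, EIF3M, EIF4A2, EIF4E and EIF4E3). With the protein-coding transcript it added 5, without EIF4A2. Of these, EIF3F and EIF4E have pseudogenes with many reads, and EIF4E3 had 36 counts in control cells and 41 with TAM.

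Only EIF1AX of the start codon selection factors was called against the control after TMM scaling. Its product is eIF1A and its gene lies on the X chromosome. EIF1AX had 127 counts in control cells, 287 with Rg3 and 78 with TAM. The Rg3 library was the highest and TAM the lowest. The log2 fold change was 0.84 with Rg3 (95% interval 0.54 to 1.16), called higher, and -0.50 with TAM (-0.92 to -0.08), not called. With 35.1% GC its trend-adjusted values were -0.09 and 0.11, so that the direction turned for both. Its pseudogene EIF1AXP1 had 77, 196 and 76 counts. EIF1, which guards start codon fidelity, had 3567, 5774 and 3486 counts, with log2 fold changes of 0.36 and 0.17. EIF1B, its close relative, had 245, 451 and 292 counts and log2 fold changes of 0.55 and 0.46, neither called after TMM scaling. On library totals EIF1B was called higher with Rg3 (0.69). Its trend-adjusted values were 0.11 with Rg3 and 0.52 with TAM, not called. EIF1AD, a nuclear protein named for its eIF1A-like domain, had the lowest value of the 4 genes with Rg3, at 0.19.

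Among the genes for eIF2 and its alternatives, 3 of 5 were called higher with Rg3 (20.4% of all genes) and 1 of 5 with TAM (14.4%). With the trend removed these counts were 1 (5.36% of all genes) and 2 (11.5%). EIF2S2, the beta subunit of eIF2, on chromosome 20 (34088298 to 34112332, minus strand, GENCODE 29, GRCh38), had 599 counts in control cells, 1502 with Rg3 and 398 with TAM. Its Rg3 library was thus the only one above the control. The log2 fold change was 0.99 with Rg3 (0.85 to 1.13) and -0.38 with TAM (-0.57 to -0.20). Adjusted for the trend the values were 0.69 and -0.32, and the former was still called. Of its stretches 22.6% recur in other genes, and its pseudogenes had 293, 680 and 187 counts. EIF2S1, the alpha subunit that the stress kinases phosphorylate, had 590, 1168 and 551 counts and was called higher with Rg3 (0.65, 0.51 to 0.80), but its trend-adjusted value was -0.08. With TAM it was at 0.11, and at 0.63 and called higher after the adjustment. EIF2S3, the gamma subunit that holds the tRNA, had 656, 1227 and 408 counts and a log2 fold change of 0.57 with Rg3 and -0.48 with TAM, the lowest of the 5 with TAM. EIF2A, an alternative carrier of initiator tRNA, had 466, 1139 and 360 counts and was called higher with Rg3 (0.96, 0.80 to 1.11, trend-adjusted 0.30). EIF2D, which acts in recycling and unusual initiation, had 480, 588 and 639 counts. It was the lowest of the 5 with Rg3 (-0.04) and was called higher with TAM (0.62, 0.45 to 0.79). Trend-adjusted it was 1.05 with TAM, or 0.38 and not called when the protein-coding transcript was used, and on library totals it was not called.

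The eIF2B genes, whose products recharge eIF2 with GTP, were not called with Rg3 after TMM scaling (20.4% of all genes were higher and 16.3% lower). With TAM 2 of 5 were called higher (14.4% of all genes) and 0 lower (18.5%). EIF2B2, on chromosome 14 (75002911 to 75012366, plus strand), had 576 counts in control cells, 587 with Rg3 and 921 with TAM. The TAM library stood above both others. The log2 fold change was 0.88 with TAM (0.73 to 1.04) and -0.31 with Rg3 (-0.47 to -0.14). With Rg3 it was at -0.58 after the trend adjustment, not called, and at -0.61 and called lower with the protein-coding transcript. Its call with TAM stayed on library totals and after both trend adjustments (1.14 and 1.19). EIF2B5, the catalytic epsilon subunit, had 1464, 1626 and 1916 counts and a log2 fold change of 0.60 with TAM (0.50 to 0.69). That call was lost on library totals and with the protein-coding transcript (0.42). EIF2B4 had 804, 782 and 1015 counts and was the lowest of the 5 with Rg3 (-0.37) and not called with TAM (0.54). EIF2B3 had 499, 819 and 560 counts, the highest value of the 5 with Rg3 (0.38), and 0.37 with TAM. EIF2B1 had 546, 770 and 457 counts and the lowest value with TAM (-0.05). Exons of EIF2B1, EIF2B2, EIF2B3, EIF2B4 and EIF2B5 lie across from exons of genes annotated on the other strand, and whether the counting used strand is not stated. For EIF2B2, 27.5% of the stretches recur in another gene.

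All 4 kinases of eIF2 alpha had log2 fold changes above 0 with Rg3 and below 0 with TAM. After TMM scaling 1 of 4 was called higher with Rg3 (20.4% of all genes) and 2 lower with TAM (18.5%). With the trend removed 1 was called higher with Rg3 (5.36% of all genes) and 0 lower with TAM (11.3%). EIF2AK3, known as PERK, the sensor of unfolded proteins in the endoplasmic reticulum, had 110 counts in control cells, 321 with Rg3 and 67 with TAM. It was the member with the largest value with Rg3, at 1.21 (0.89 to 1.54), called higher, and it had -0.51 with TAM (-0.97 to -0.06), not called. Trend-adjusted the values were 0.83 and -0.15, and the former was still called. The gene lies on chromosome 2 (88556741 to 88627576, minus strand), and 16.0% of its stretches recur in AC104134.1, annotated on the other strand. EIF2AK2, known as PKR and activated by double-stranded RNA, had 239, 440 and 87 counts. Its value with TAM was the lowest of all members, -1.25 (-1.62 to -0.89), called lower, and with Rg3 it was 0.55 and not called. Trend-adjusted it was -0.35 with TAM and -0.18 with Rg3, the latter of the other sign, over a longest transcript of 10042 bases with 38.7% GC. EIF2AK4, known as GCN2 and activated by uncharged tRNA, had 498, 872 and 240 counts and was called lower with TAM (-0.85, -1.07 to -0.62, trend-adjusted -0.51) and not called with Rg3 (0.47). EIF2AK1, the heme-regulated kinase, had 2555, 4007 and 1538 counts, by far the most reads of the 4, and log2 fold changes of 0.32 and -0.52, not called. On library totals EIF2AK1 (-0.73) and EIF2AK3 (-0.72) were also called lower with TAM, and EIF2AK2 (0.69) and EIF2AK4 (0.62) higher with Rg3. In the TAM library the 4 kinases had trend-adjusted values from -0.51 to -0.15.

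The 14 genes of eIF3, the largest initiation factor and a scaffold on the small ribosomal subunit, differed in direction. For Rg3 2 were called higher and 2 lower (14.3% each, where 20.4% and 16.3% of all genes were). For TAM these were 2 and 1 (14.3% and 7.14%, where 14.4% and 18.5% of all genes were). Trend-adjusted, they were 0 and 2 for Rg3 (5.36% and 7.63% of all genes). For TAM they were then 2 and 0 (11.5% and 11.3% of all genes). EIF3J, a loosely bound subunit, had 326, 854 and 247 counts and was called higher with Rg3 (1.06, 0.87 to 1.24). EIF3E had 1327, 2862 and 1131 counts and was called higher with Rg3 (0.77, 0.68 to 0.87). Both have transcripts under 39% GC, and their trend-adjusted values were 0.33 and 0.02. EIF3C, a core subunit, had 4360, 3353 and 3479 counts and was called lower with Rg3 (-0.71, -0.78 to -0.65), while its copy EIF3CL, with 4145, 5046 and 4778 counts, was at -0.05. With the reads of both summed, EIF3C was at -0.35 with Rg3 and 0.16 with TAM, neither called. EIF3G, an RNA-binding subunit of 60.3% GC, had 1964, 1626 and 2576 counts. It was called lower with Rg3 (-0.61, -0.70 to -0.51) and higher with TAM (0.60, 0.51 to 0.68), and trend-adjusted it was at -0.05 and 0.14. EIF3I, a WD-repeat subunit, had 5442, 4988 and 7189 counts and the highest value of the group with TAM, 0.61 (0.56 to 0.66, trend-adjusted 0.38). EIF3A, the largest subunit, had 2577, 4500 and 1451 counts and the lowest value with TAM, -0.62 (-0.72 to -0.53, trend-adjusted -0.02), with a transcript of 43.2% GC. On library totals the calls of EIF3C and EIF3G with Rg3 and of EIF3G and EIF3I with TAM were lost. EIF3K, the highest member per length, had 14041, 12458 and 13401 counts and log2 fold changes of -0.51 and 0.14, not called against the control. EIF3K was called higher for TAM against Rg3 (0.65), as was EIF3B, a core scaffold subunit with 6921, 6484 and 7936 counts (0.83, 0.79 to 0.88). EIF3B was called in that comparison alone, and lost the call on library totals (0.48) and after the trend adjustment (0.25). EIF3D, which can itself bind the cap of some mRNAs, had 4588, 4014 and 4138 counts and was just past the fold limit there (0.59, 0.52 to 0.65), which it also lost on library totals (0.23) and after adjustment (0.12). EIF3H (0.17 and -0.23), EIF3L (0.16 and -0.04) and EIF3M (0.54 and 0.10) were not called with either agent after TMM scaling. EIF3M was called higher with Rg3 on library totals (0.69), and higher with TAM after both trend adjustments (0.72 and 0.77). EIF3F had 1635, 1885 and 1542 counts and a like number on its pseudogenes (1902, 2186 and 1598), and was at -0.13 with Rg3 and 0.12 with TAM. Its trend-adjusted values, -0.76 and 0.86, rest on a longest transcript of 7540 bases.

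The ratio of EIF3J to EIF3G counts within a library, which no scaling changes, was 0.166 in control cells, 0.525 with Rg3 and 0.0959 with TAM. This pair and the pairs below were chosen after the values were seen. The log2 ratio was 1.66 higher with Rg3 than in the control (95% interval from the 4 counts, 1.45 to 1.87) and 0.38 higher once the trend was removed.

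In the cap-binding and helicase group 3 of 11 genes were called higher with Rg3 and 0 lower, and with TAM 0 were higher and 2 lower. The share higher with Rg3 (27.3%) was near that of all genes (20.4%). The share lower with TAM (18.2%) was near that of all genes too (18.5%). After the trend adjustment 0 were called for Rg3, where 5.36% of all genes were higher and 7.63% lower. For TAM 3 were then higher (EIF4A2, EIF4E and EIF4E3) and 0 lower, where 11.5% and 11.3% of all genes were. EIF4G2, also called DAP5, an eIF4G relative that lacks the eIF4E-binding part and serves cap-independent initiation, had 9238 counts in control cells, 19400 with Rg3 and 4739 with TAM. It was called higher with Rg3 (0.74, 0.70 to 0.77) and lower with TAM (-0.76, -0.81 to -0.70). It lies on chromosome 11 (10797050 to 10809110, minus strand), its transcript has 40.5% GC, and its trend-adjusted values were 0.09 and -0.06, the latter -0.38 with the protein-coding transcript. EIF4G1, the main scaffold, with 57.4% GC, had 13416, 12468 and 13122 counts and values of -0.44, the lowest of the group with Rg3, and 0.18. The ratio of EIF4G2 to EIF4G1 counts was 0.689 in control cells, 1.56 with Rg3 and 0.361 with TAM, and with the trend removed the log2 ratio changed by 0.09 with Rg3 and -0.24 with TAM. EIF4G3, the third scaffold, had 941, 1695 and 432 counts and was called lower with TAM (-0.92, -1.08 to -0.75, trend-adjusted -0.46), the lowest of the group. EIF4E, the cap-binding protein itself, had 99, 261 and 67 counts. It was called higher with Rg3 (1.06, 0.73 to 1.41) and was at -0.36 with TAM (-0.83 to 0.11), with an interval that included no change. With the reads of its pseudogenes added, the values were 1.04 and -0.13. Trend-adjusted EIF4E was at 0.35 with Rg3 and at 0.60 with TAM, the latter of the other sign, over the longest transcript in this group.

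The 3 eIF4A genes encode DEAD-box helicases. EIF4A1, the main form, had 6691, 7246 and 6964 counts and values of -0.22 and 0.27. EIF4A2, its close relative, had 1118, 2295 and 1059 counts and was called higher with Rg3 (0.70, 0.60 to 0.81), with 38.7% GC and a trend-adjusted value of -0.05. With TAM it was at 0.13, and at 0.76 and called higher after adjustment, or 0.30 and not called with the protein-coding transcript. The ratio of EIF4A2 to EIF4A1 counts was 0.167 in control cells, 0.317 with Rg3 and 0.152 with TAM. The log2 ratio changed by 0.92 with Rg3 and -0.14 with TAM, and with the trend removed by 0.14 and 0.68, the latter of the other sign. All the 50-base stretches of EIF4A1 recur in other genes, and its pseudogenes had 4850, 5577 and 4340 counts. EIF4A3, which belongs to the exon junction complex and not to eIF4F, had 1890, 2321 and 2047 counts and values of -0.04 and 0.32. EIF4B and EIF4H, which assist the helicase, were not called with either agent after TMM scaling, with EIF4H the highest of the group with TAM (0.43). EIF4B had 3369, 4572 and 2191 counts beside 2326, 3192 and 1635 on its pseudogenes. EIF4E2, which represses chosen mRNAs, had 1249, 1689 and 1341 counts and values of 0.10 and 0.31, and EIF4E3 had 36, 62 and 41 counts and intervals that included no change (-0.16 to 1.08 with Rg3 and -0.29 to 1.08 with TAM).

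The 4E-binding proteins split by gene. EIF4EBP1, which sequesters eIF4E when mTOR is inactive, had 680 counts in control cells, 653 with Rg3 and 1069 with TAM. It was called higher with TAM (0.86, 0.72 to 1.00) and was at -0.39 with Rg3 (-0.55 to -0.24), not called. It has the highest GC content of all members, and its trend-adjusted values were 0.36 and 0.27, the latter of the other sign. EIF4EBP2, which has the same role, had 474, 920 and 297 counts and 43.7% GC. It was called higher with Rg3 (0.62, 0.46 to 0.79, trend-adjusted 0.19) and was at -0.47 with TAM, not called. The ratio of EIF4EBP2 to EIF4EBP1 counts was 0.697 in control cells, 1.41 with Rg3 and 0.278 with TAM. With the trend removed the log2 ratio changed by -0.07 with Rg3 and -0.21 with TAM. EIF4EBP3 had 14, 12 and 15 counts, and 71.8% of its stretches recur in the readthrough gene ANKHD1-EIF4EBP3, so that no difference was detectable at this depth. EIF4ENIF1, which carries eIF4E into the nucleus, had 201, 217 and 175 counts and values of -0.22 and 0.01.

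Among the factors of subunit joining and the later steps, EIF5 and EIF6 marked the ends with Rg3. EIF5, the activator of GTP hydrolysis by eIF2, on chromosome 14 (103333544 to 103345025, plus strand), had 924 counts in control cells, 2525 with Rg3 and 601 with TAM. It was called higher with Rg3 (1.12, 1.01 to 1.23) and was at -0.41 with TAM (-0.56 to -0.26). Trend-adjusted it was at 0.54 with Rg3, just under the fold limit, and at 0.18 with TAM. EIF6, which keeps the large ribosomal subunit from joining too early and serves in its making, on chromosome 20 (35278911 to 35284985, minus strand), had 4128, 2849 and 6709 counts. The Rg3 library was the lowest and TAM the highest. Its values were -0.87 with Rg3 (-0.94 to -0.80), called lower, and 0.91 with TAM (0.85 to 0.96), called higher, and both calls stayed on library totals. Its transcript has 58.0% GC, and the trend-adjusted values were -0.41 and 0.50, neither called, and 19.0% of its stretches recur in other genes. The ratio of EIF5 to EIF6 counts was 0.224 in control cells, 0.886 with Rg3 and 0.0896 with TAM. With the trend removed the log2 ratio was 0.94 higher with Rg3 and changed by -0.32 with TAM.

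EIF5B, the GTPase of subunit joining, had 689, 1431 and 303 counts. It was called higher with Rg3 (0.72, 0.59 to 0.85) and lower with TAM (-0.98, -1.18 to -0.78), the lowest of the 6 genes, and trend-adjusted it was at -0.04 and -0.31 with a transcript of 38.6% GC. EIF5A was at -0.41 with Rg3 and 0.52 with TAM, not called against the control. EIF5AL1 was called lower with Rg3 (-0.69, -0.75 to -0.63) and higher with TAM (0.68, 0.63 to 0.73). Both calls of EIF5AL1 were lost on library totals. With the reads of EIF5A, EIF5AL1 and the EIF5A pseudogenes summed, the values were -0.49 and 0.58, neither called. The longest transcripts of the pair have 57.3% GC and 45.6% GC, so that the trend-adjusted values of EIF5AL1 (-0.97 and 0.88) hold only if its reads arose from EIF5AL1, which was not tested. EIF5A2, a second hypusine-carrying form, had 149, 266 and 101 counts and values of 0.50 and -0.35, not called against the control. For TAM against Rg3 it was called lower (-0.86, -1.20 to -0.52), but called higher after both trend adjustments (0.84 and 0.92).

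**Figure D4:**
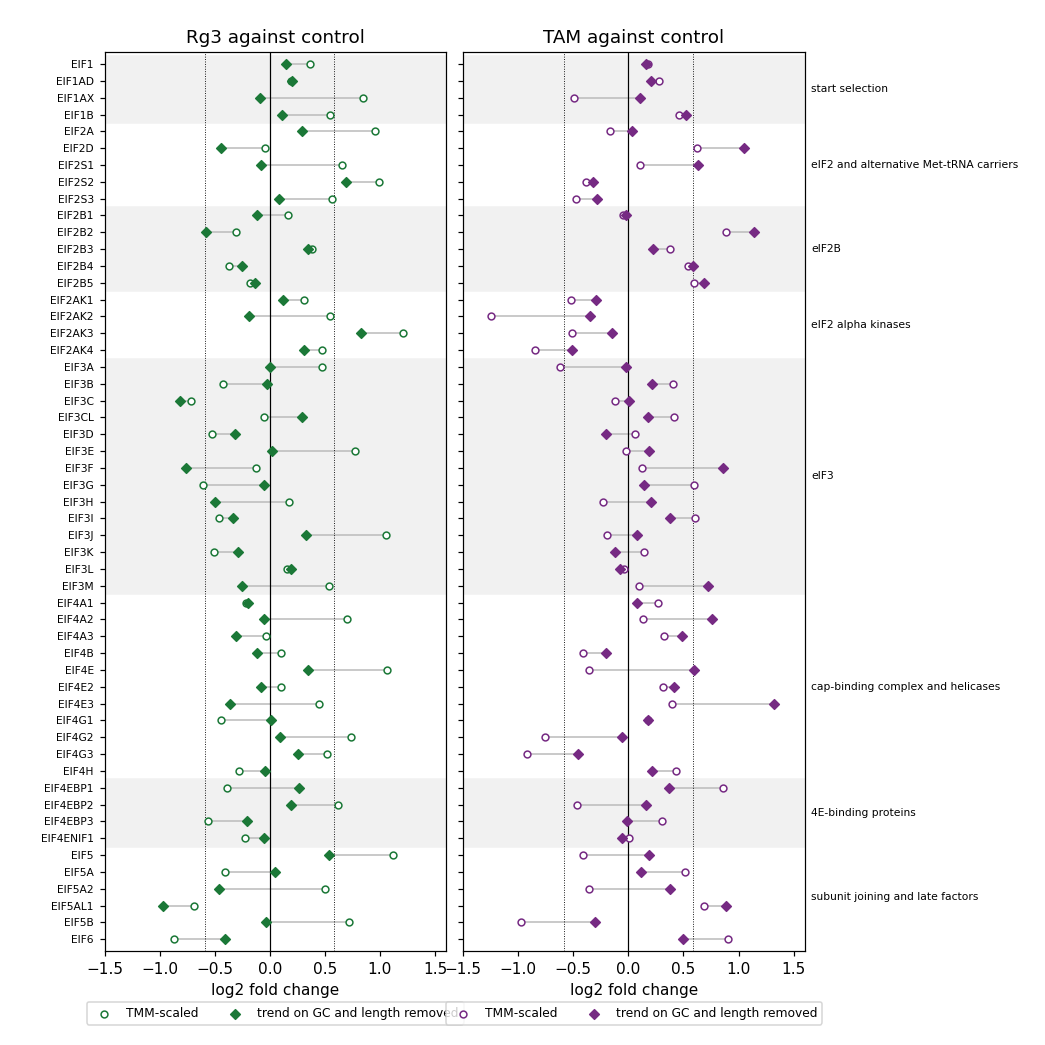
Log2 fold change of the 53 genes against the control library after TMM scaling (open circles) and after a trend on GC content and transcript length was removed (filled diamonds), with the fold limit as dotted lines. With Rg3, EIF2AK3 (0.83) and EIF2S2 (0.69) are the only diamonds beyond the upper limit, and with TAM 10 are beyond it.

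The 2 treated libraries were also set directly against each other, at the doses given and not at matched ones. With TAM 16 of the 53 genes were called higher than with Rg3 (30.2%, where 27.4% of 16493 genes were) and 18 lower (where 30.1% were). Among genes with at least 50 counts the background was 30% higher and 35.2% lower, and with the trend removed it was 17.8% and 14.5%, beside 16 and 4 members. Called higher here but with neither agent against the control were EIF2B4, EIF3B, EIF3D, EIF3K (0.65), EIF4G1 (0.62), EIF4H (0.71) and EIF5A (0.93). EIF3C was called higher here too (0.59), and on library totals all of these calls were lost. EIF2AK1, EIF2S3 (-1.05) and EIF5A2 were called lower here but with neither agent against the control. The kinases of eIF2 alpha were each called lower with TAM than with Rg3, from -1.80 for EIF2AK2 (-2.15 to -1.46) to -0.84 for EIF2AK1 (-0.93 to -0.75). EIF2AK3 (-0.96) and EIF2AK4 (-0.79) were still called after the trend adjustment. In eIF2B, 3 of 5 genes were called higher with TAM than with Rg3 and 0 lower, led by EIF2B2 (1.19, 1.04 to 1.34, trend-adjusted 1.75). EIF2B4 and EIF2B5 lost that call on library totals (0.56 and 0.42) and with the protein-coding transcript (0.11 and 0.41), while EIF2B2 did not. The largest differences were 1.78 for EIF6 (1.71 to 1.84, trend-adjusted 0.89) and -1.80 for EIF2AK2 (trend-adjusted -0.16). EIF2S2 was lower with TAM than with Rg3 by a log2 value of -1.37 (-1.54 to -1.21), and at -0.99 after adjustment it was still called.

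Next, 2 lists of neighbouring genes were read beside the members. Of 31 helpers and regulators of initiation outside the EIF symbols, 12 were called higher and 2 lower with Rg3 (38.7% and 6.45%, where 20.4% and 16.3% of all genes were), with a median of 0.39. With TAM 4 were higher and 7 lower (12.9% and 22.6%, near the 14.4% and 18.5% of all genes), with a median of -0.13. With the trend removed, which left out GCN1L1 for want of a matched transcript, 5 were higher and 1 lower with Rg3 (median 0.11). These were 16.7% and 3.33%, where 5.36% and 7.63% of all genes were. With TAM the counts were then 4 and 2 (median 0.08), or 13.3% and 6.67%, where 11.5% and 11.3% of all genes were. DHX29, a helicase for structured leaders, had 229, 711 and 116 counts and was called higher with Rg3 (1.30, trend-adjusted 0.63) and lower with TAM (-0.77, trend-adjusted -0.27). PDCD4, an inhibitor of eIF4A, had 105, 192 and 36 counts and was called lower with TAM (-1.34, trend-adjusted -0.90). RPS6KB1, the S6 kinase downstream of mTOR, had 235, 432 and 52 counts and was called lower with TAM (-1.97, trend-adjusted -1.31), while RPS6KB2, with 1376, 1168 and 1969 counts, was called higher (0.72, trend-adjusted 0.70). DDIT4, an inhibitor of mTOR complex 1, had 1144, 994 and 2468 counts and was called higher with TAM (1.32, trend-adjusted 0.90). SESN2, another inhibitor of that complex, had 221, 364 and 386 counts and was called higher with TAM (1.01, trend-adjusted 0.72). With Rg3 SESN2 was at 0.39 and not called, but at 0.93 after the adjustment, above its value with TAM. Set directly against Rg3, its trend-adjusted value with TAM was -0.20. MTOR itself had 1410, 1876 and 800 counts and was called lower with TAM (-0.61, trend-adjusted -0.15). RPTOR had 1068, 715 and 1187 counts and was called lower with Rg3 (-0.91, trend-adjusted -0.37). PPP1R15B, a subunit of the phosphatase that restores eIF2, had 397, 772 and 192 counts. It was called higher with Rg3 (0.63, trend-adjusted 0.17) and lower with TAM (-0.84, trend-adjusted -0.38). Its relative PPP1R15A had 432, 570 and 526 counts and was not called after TMM scaling. PPP1R15A was at 0.07 with Rg3 (trend-adjusted 0.59) and at 0.49 with TAM (trend-adjusted 0.10).

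Of 19 elongation and termination factors, 5 were called higher and 4 lower with Rg3 (26.3% and 21.1%, near the 20.4% and 16.3% of all genes), with a median of -0.16. With TAM 4 were higher and 1 lower (21.1% and 5.26%, where 14.4% and 18.5% of all genes were), with a median of 0.46. After the trend adjustment 0 were called in either direction for Rg3, where 5.36% of all genes were higher and 7.63% lower. For TAM the counts were then 4 higher and 1 lower (median 0.25). These TAM counts were 21.1% and 5.26%, where 11.5% and 11.3% of all genes were. EEF1A1, which brings aminoacyl-tRNA to the ribosome, had 34797, 69318 and 41807 counts and was called higher with Rg3 (0.66, trend-adjusted 0.41). With TAM EEF1A1 was at 0.47 and not called, but at 0.73 after the adjustment, above its value with Rg3. Its tissue-restricted form EEF1A2 had 3529, 1903 and 3152 counts and was called lower with Rg3 (-1.22, trend-adjusted -0.51). ETF1, the release factor that reads stop codons, had 1474, 3125 and 1412 counts and was called higher with Rg3 (0.75, trend-adjusted 0.30). DOHH, the last enzyme of hypusine synthesis on eIF5A, had 173, 128 and 222 counts and was called lower with Rg3 (-0.77, trend-adjusted -0.03). PELO, which rescues stalled ribosomes, had 508, 784 and 830 counts and was called higher with TAM (0.92, trend-adjusted 1.20).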

How the data were processed

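The authors extracted total RNA, sequenced it on an Ion Proton and aligned the reads with TopHat, with GRCh38 as the build in the submitters' processing notes. The counting tool, annotation and use of strand are not given in the sources used here. The table they deposited holds raw counts by gene symbol, with 1 column for each library. Columns of no mapped sample numbered 0.

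From the deposited counts, TMM factors were taken with edgeR 4.0.16 (R 4.3.3) over genes with at least 10 counts in a library: 1.01 for control, 1.12 for Rg3 and 0.877 for TAM. Comparisons used genes that reached 10 counts in 1 or both libraries, and any count below 3 was set to 3. A call needed a fold over 1.5 or under 0.67 and a 95% exact binomial interval clear of no change. Limma, which the study names, requires replicates and was not run. A count of 0 allows up to 3 counts, and intervals cover counting error only.

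GC content, length, positions and shared 50-base stretches came from GENCODE 29 (GRCh38), by symbol. A transcript was found for 86.6% of genes compared for Rg3, 87.2% for TAM and each of the 55 members. The trend was a robust loess (span 0.3) of log2 fold change on GC content and log2 length over all genes with a transcript. Alternatives were library totals, size factors from DESeq2 1.42.0, filters of 1 or 50 counts, the fold alone, the trend removed and members with under 10% shared stretches. Summing pseudogene and copy reads with the parent, and the longest protein-coding transcript, were alternatives added after seeing the data.

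Members named in the text were those called in any comparison, the kinases and 4E-binding proteins, the highest and lowest of each functional group and the 5 highest levels in control. EIF1, EIF3CL, EIF3F, EIF3H, EIF3L, EIF3M, EIF4A3, EIF4B, EIF4E2, EIF4E3 and EIF4ENIF1 were named besides, to complete their groups, after their values were seen. The members and lists were chosen with earlier results of these data known. The calls were tested on simulated data with known changes and counting error only. A GC trend was then added, the same straight line in each comparison, falling with GC content and steeper than the trend seen with Rg3. The trend seen with TAM rose with GC content instead, and no trend on length was simulated. The rates that follow belong to that setting and are not error rates of these libraries. With the GC trend added, calls after scaling recovered 61% of 2-fold changes for Rg3 against control and 63.5% for TAM. They also called 7584 of 16148 unchanged genes for Rg3 and 7523 of 16044 for TAM. With that trend removed, 96% and 92.5% were recovered. Unchanged genes called were then 145 of 14055 and 139 of 13987.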

Additional observations from a re-analysis of the deposited data

How the results depend on the processing

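No paired analysis was possible because there is a single library for each agent, and no library could be left out. DESeq2 size factors moved 0 of 159 gene values past their counting intervals and, like filters of 1 or 50 counts and the fold alone, kept each count of calls within 1.5 times. Library totals gave 21 higher and 1 lower for Rg3, for TAM 3 higher and 14 lower (median -0.10), and 6 higher for TAM against Rg3 (median -0.44), by the constant shift of the scaling. With the trend removed, 2 were higher with Rg3 (median -0.051), 0 lower with TAM, and 4 lower for TAM against Rg3 (median 0.17). With the protein-coding transcript these were 2 (median -0.00326), 0 and 5 (median 0.16). The 33 members with under 10% shared stretches gave 1 lower with Rg3 (median 0.38), 5 higher with TAM and 10 higher for TAM against Rg3, from fewer genes. Adding pseudogene and copy reads left 2 lower with Rg3.

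The trend adjustment turned the sign of 10 called values. With Rg3 these were EIF1AX (-0.089), EIF2S1 (-0.081), EIF4A2 (-0.055) and EIF5B (-0.037), and for TAM against Rg3 EIF1AX (0.20), EIF3A (0.0120), EIF3E (0.21), EIF4E (0.25), EIF4EBP2 (0.00165) and EIF5A2 (0.84). With the protein-coding transcript they were EIF1AX (-0.12), EIF2S1 (-0.10) and EIF5B (-0.060) with Rg3, EIF3A (0.0151) with TAM, and EIF1AX (0.29), EIF3A (0.066), EIF3E (0.17), EIF4E (0.28), EIF4EBP2 (0.051) and EIF5A2 (0.92) for TAM against Rg3. Of these, only EIF5A2 passed from called lower to called higher, for TAM against Rg3 and with either transcript. The cause of these turns was not tested.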
